A study of Arabidopsis thaliana with 6 samples.

Results

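The auxin response factors (ARFs) described here are 10 genes, ARF1 (AT1G59750), ARF2 (AT5G62000), ARF3 or ETTIN (AT2G33860), ARF4 (AT5G60450), ARF5 or MONOPTEROS (AT1G19850), ARF6 (AT1G30330), ARF7 or NPH4 (AT5G20730), ARF8 (AT5G37020), ARF10 (AT2G28350) and ARF16 (AT4G30080), among the 27444 nuclear genes annotated as protein-coding. They were listed by locus identifier, with earlier results of these data known, and all 10 were found. The samples were young leaves of *Arabidopsis thaliana* Columbia-0 on soil, under 8 h of light and 16 h of darkness a day at 22.5 °C, and no other genotype, treatment or tissue was compared. Chromatin immunoprecipitation (ChIP) gave 2 samples for trimethylated lysine 4 of histone H3 (H3K4me3, found at transcribed genes) and 2 for trimethylated lysine 27 (H3K27me3, set by Polycomb Repressive Complex 2), with 1 input DNA sample. RNA sequencing gave 1 mRNA sample. The data used here are 1 list of enriched domains per mark and 1 value of mean read depth per gene, so no value below has a replicate error or a test.

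ARF proteins bind auxin response elements in promoters and set the output of the auxin pathway. When auxin is low, Aux/IAA proteins bind ARFs and bring TOPLESS corepressors to the promoter. Auxin joins TIR1/AFB receptors to Aux/IAA proteins, which are then degraded, and the ARFs are released. ARF5, ARF6, ARF7 and ARF8 have a glutamine-rich middle region and act as activators, while ARF1, ARF2, ARF3, ARF4, ARF10 and ARF16 are classed as repressors. Small RNAs cut the mRNAs of many ARFs: miR160 acts on ARF10 and ARF16, miR167 on ARF6 and ARF8, and trans-acting siRNAs from TAS3 transcripts on ARF2, ARF3 and ARF4.

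Leaf identity was visible in the mRNA table. The photosynthesis genes CAB1 and RBCS1A had depths of 22244 and 12915, whereas the root hair genes RHD6 and EXPA7 and the petal and stamen gene AP3 were not listed and the floral gene AG stood at 1.41. The table listed 20764 loci at depths of 1.00 to 22244 with a median of 6.74. It gives neither reads per gene nor library size, so the sampling error of a depth is unknown, and a depth ranks genes within this library. In a whole leaf, few cells with much mRNA and many cells with little cannot be told apart.

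All 10 ARFs were listed in the mRNA table, against 72.9% of all protein-coding genes and 90.2% of those with bodies as long as the ARFs' (3069 to 5735 bases). Their median depth was 10.1, against 6.92 over the listed protein-coding genes. The depths ran over a 26.0-fold range from ARF5 to ARF2. ARF2 stood alone at the top, ARF5 and ARF10 were at the bottom, and the other 7 lay between 7.41 and 14.6. With 1 library it cannot be judged which neighbours in this order differ.

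Among the repressors, ARF2 had the highest depth, 65.6, at percentile 93.7 of the listed loci. ARF2 restrains cell division and promotes leaf senescence and floral organ shedding. Its depth was 4.50 times that of ARF1, the next in order, and made up 43.8% of the depth summed over the 10 genes. ARF1, which acts together with ARF2 in ageing leaves and flowers, had a depth of 14.6 at percentile 72.3. ARF3 and ARF4 specify the lower side of the leaf and are joint targets of the TAS3 siRNAs. ARF3, which lacks the C-terminal domain through which other ARFs bind Aux/IAA proteins, had a depth of 13.8 at percentile 71.0. ARF4, the other gene of this pair, had 8.28 at percentile 56.2. The body of ARF3 adjoins AT2G33855, which had a depth of 46.9.

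ARF10 and ARF16, the miR160 targets that act in root cap formation and in seeds, were the lowest repressors. ARF16 had a depth of 7.41 at percentile 52.9, close to the middle of the library. ARF10 had 4.001 at percentile 36.0, the second lowest of the family members described here.

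The activators ran from 2.52 to 13.5, and the repressors from 4.001 to 65.6, or to 14.6 without ARF2. ARF6 and ARF8 are the miR167 targets that drive flower maturation and hypocotyl growth. ARF6 had a depth of 13.5 at percentile 70.4 and ARF8 had 10.5 at percentile 63.2. ARF7, required for phototropic bending and lateral roots, had 9.63 at percentile 60.7. The body of ARF7 overlaps 254 bases of CPN20, a chloroplast co-chaperonin gene with a depth of 354.1, and reads of the shared stretch cannot be assigned, so the ARF7 value is uncertain. ARF5, which sets up embryo axis, leaf veins and flower primordia, was the shallowest at 2.52 and percentile 25.8. The medians of both groups were close, 10.1 for the 4 activators and 11.0 for the 6 repressors.

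**Figure D1:**
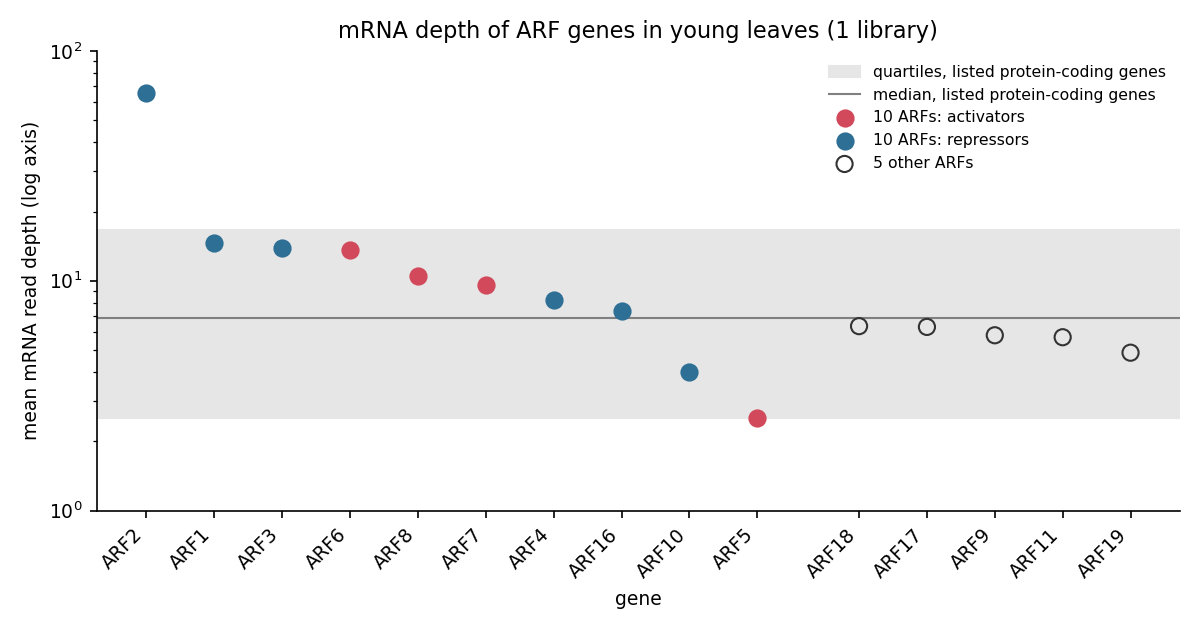
Mean mRNA read depth (log axis) of the 10 ARFs, coloured as activators or repressors, and of 5 other ARFs in the 1 leaf library, with the quartiles and median of the listed protein-coding genes. ARF2 at 65.6 is the only one above the upper quartile of 16.6, and ARF5 at 2.52 lies at the lower quartile.

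A mark was called present on a gene if 150 or more bases of the body lay under its domains. H3K4me3 was then present on 9 of the 10 ARFs, against 64.4% of all protein-coding genes, and on 89.4% of listed genes with bodies as long as the ARFs'. The gene without it was ARF5. H3K27me3 was present on none of the 10, against 31.0% of all protein-coding genes, and 14.7% of listed genes of like length. The 9 marked ARFs therefore carried H3K4me3 alone; 54.2% of all protein-coding genes were in that class, and 14.8% were, like ARF5, without either mark. Set beside genes of like length and listing, the H3K4me3 count is near its background. With only 10 genes, the absence of H3K27me3 is also not far from the share of 14.7%. The domains come from whole leaves, so both marks called on a gene need not lie in the same cells.

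**Figure D2:**
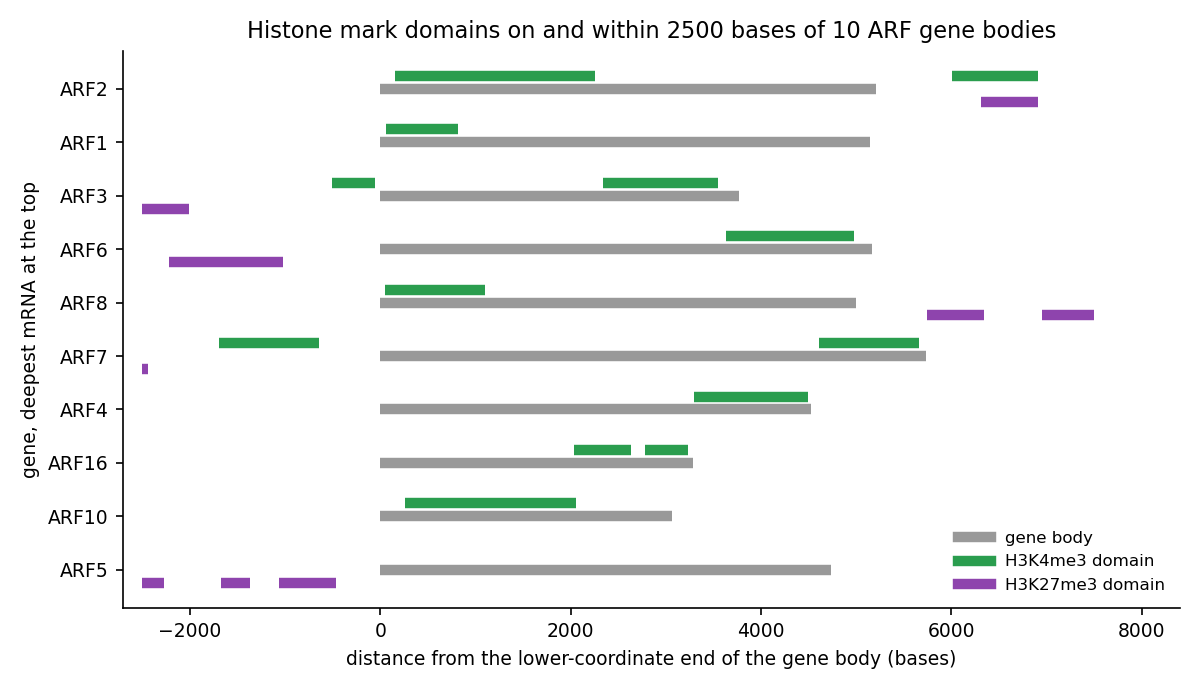
Domains of H3K4me3 (green, above) and H3K27me3 (purple, below) on each ARF gene body (grey) and within 2500 bases of it, in bases from the lower-coordinate end, with the deepest gene at the top. Each of the 9 marked genes has its H3K4me3 at 1 end of the body, and no H3K27me3 domain reaches a body.

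The width of H3K4me3 differed widely between members. ARF2 had the widest domain, 2100 bases (chromosome 5, 24910351 to 24912450, TAIR10), over 40.3% of its body. The domain score, a number the authors gave each domain, put it at percentile 97.8 of the 19276 H3K4me3 domains. The domain on ARF10 spanned 1800 bases (chromosome 2, 12114151 to 12115950) and 58.7% of the body. Its score was at percentile 98.4, above that of ARF2, so the highest-scoring H3K4me3 domains among these 10 genes lay on the deepest and on the second shallowest of the 10 genes. Both are also the widest domains. Divided by domain width, the scores stood at percentiles 71.5 for ARF2 and 90.6 for ARF10.

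The middle of the range was made up of ARF6, ARF3, ARF4, ARF8, ARF7 and ARF16. ARF6 had 1350 bases (chromosome 1, 10689451 to 10690800) at score percentile 82.2. ARF3 and ARF4 each had 1200 bases, on chromosome 2 (14327551 to 14328750) and chromosome 5 (24311551 to 24312750), with scores at percentiles 83.4 and 83.3. This pair of leaf identity genes thus had equal H3K4me3 widths, with the higher depth on ARF3.

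ARF8 had 1050 bases on chromosome 5 (14629501 to 14630550) at score percentile 69.4. ARF7 also had 1050 bases on chromosome 5 (7021051 to 7022100), at score percentile 68.2. That domain lay at the end of the body away from the overlap with CPN20. ARF16 reached 1050 bases in 2 domains of 600 and 450 (chromosome 4, 14705101 to 14705700 and 14705851 to 14706300), at score percentiles 24.6 and 24.0. Divided by domain width, these scores stood at percentiles 22.5 and 39.8.

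ARF1 had the least H3K4me3 of the marked members, 750 bases (chromosome 1, 21979351 to 21980100) over 14.6% of its body, at score percentile 36.9. It was the second deepest of the 10. Over the 9 marked members the median was 1200 bases, against 750 over all marked protein-coding genes and 750 over those with bodies of like length. As a share of the body it was 26.5%, against 32.4% over all marked genes and 20.9% over those of like length. In the upper part of each list by score, median included, H3K4me3 was left on 7 of the 10 ARFs, against 36.0% of all protein-coding genes, and ARF1 and ARF16 then carried neither mark. Coverage of at least 50% of the body was reached by ARF10 alone, against 15.5% of all protein-coding genes. For these limits no share was computed over listed genes of like length, so the counts cannot be read as an excess or a lack.

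On each marked ARF, H3K4me3 sat near 1 end of the body. The gap between the body end and the nearest domain edge was 34 bases on ARF4, 48 on ARF8, 54 on ARF16, 62 on ARF1, 79 on ARF7, 160 on ARF2, 188 on ARF6, 228 on ARF3 and 262 on ARF10. The end was the one with the lower coordinate on ARF1, ARF2, ARF8 and ARF10 and the higher one on ARF3, ARF4, ARF6, ARF7 and ARF16. Gene strand was not used here, so these ends are not called starts. None of the 10 domains on the marked ARFs ran past a body end. The same held for 84.8% of marked protein-coding genes of like length, and 84.2% of these had their largest H3K4me3 piece within 300 bases of an end, so this placement is the usual one.

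ARF5 differed from the other 9 in having no domain of either mark on its body. The nearest H3K4me3 domain was 2596 bases away. Of the 4059 protein-coding genes with neither mark, 41.8% were listed and 11.4% were deeper than ARF5, so its depth of 2.52 was in the upper part of that class and the lowest of the 10 ARFs. ARF5 overlaps AT1G19860, a gene with H3K4me3 alone and a depth of 11.3, by 23 bases. It also had H3K27me3 close by: a domain of 600 bases (chromosome 1, 6885601 to 6886200) ended 468 bases from the body, followed by 1 of 300 bases at 1368 and 1 of 600 bases at 2268. All 3 scored below the median of the H3K27me3 list, at percentiles 31.8, 16.2 and 46.9.

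H3K27me3 domains lay at varied distances from the other ARFs. The nearest was 746 bases from ARF8, 1021 from ARF6, 1105 from ARF2, 2005 from ARF3, 2444 from ARF7, 3688 from ARF1, 3964 from ARF16, 7388 from ARF10 and 8216 from ARF4. With 1000 bases added at each end of the body, 2 of the 10, ARF5 and ARF8, held at least 150 bases of the mark. Among protein-coding genes without H3K27me3 on the body, 18.7% did so, a share close to that of the ARFs.

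Spearman's rho between the H3K4me3 bases of a gene and its mRNA depth was 0.30 over the 10 ARFs, all of them listed, against 0.56 over the 5077 listed protein-coding genes with bodies of 3069 to 5735 bases. For the share of the body under H3K4me3, rho over the 10 ARFs was 0.055. The points are genes of 1 library and no replicates. For H3K4me3 bases it was 0.51 without ARF10, 0.034 without ARF2 and 0.034 without ARF5, so single genes set its size. Each of the 9 marked ARFs was also placed among protein-coding genes with the same H3K4me3 coverage to within 150 bases, listed or not. ARF10 stood at percentile 11.0 of the depths of 509 such genes, whose median was 24.3. Of the 496 genes with at least as many H3K4me3 bases as ARF10, 39 (7.86%) were as shallow as ARF10 or shallower. ARF2 stood at percentile 72.9 of 221 genes and ARF1 at 70.3 of 9478. ARF3, ARF8, ARF6 and ARF7 were near the middle, at percentiles 51.7, 45.7, 45.6 and 42.1, and ARF16 and ARF4 lower, at 32.5 and 32.2.

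**Figure D3:**
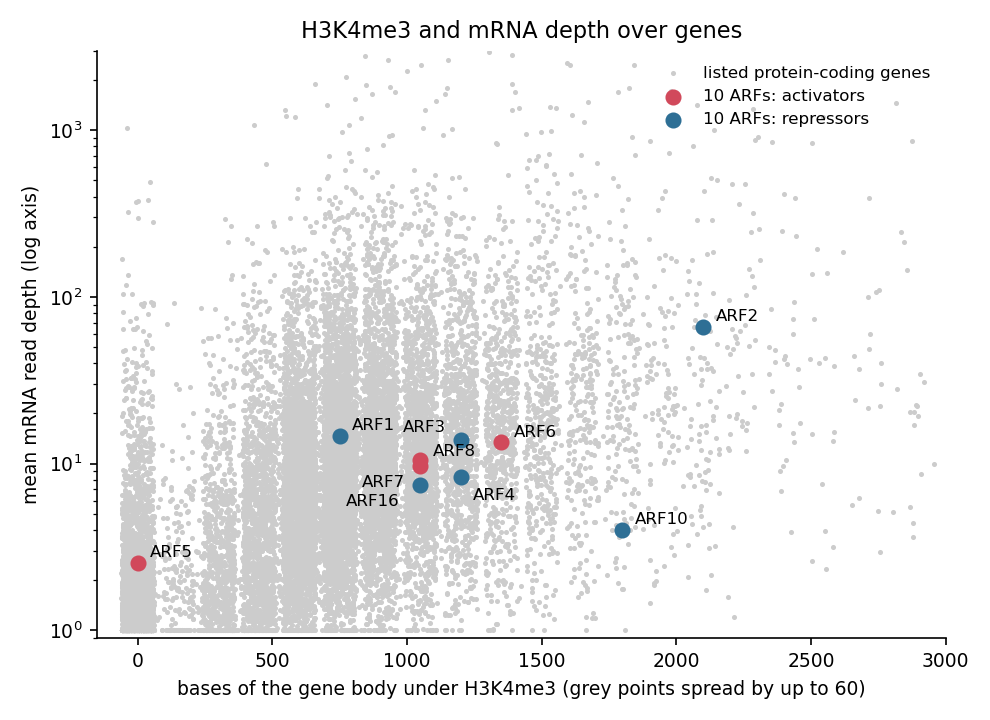
Bases of the gene body under H3K4me3 against mean mRNA read depth (log axis) for the 10 ARFs and, in grey, the listed protein-coding genes. ARF10, with 1800 bases and a depth of 4.001, lies low among genes with as much H3K4me3, while ARF2 has 2100 bases and a depth of 65.6.

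The rest of the ARF family fell into 2 kinds. The 5 other ARFs outside the chromosome 1 copies, ARF9, ARF11, ARF17, ARF18 and ARF19, all carried H3K4me3 alone, on 750 to 1500 bases. Of listed protein-coding genes, 73.1% were in that class. Once domains below the median score were left out, 2 of the 5 kept H3K4me3, against 36.0% of all protein-coding genes. The depths of these 5 ARFs were 5.79, 5.68, 6.30, 6.35 and 4.87. ARF19, the close partner of ARF7 in lateral root formation, was the shallowest of these and ARF17, a miR160 target like ARF10 and ARF16, had the most H3K4me3. Only ARF10 and ARF5 among the 10 were below this span of depths. The 8 seed-type copies on chromosome 1 (ARF12 to ARF15 and ARF20 to ARF23) were not listed in the mRNA table. None had H3K4me3, and ARF14 alone had H3K27me3, on 600 bases. These copies are alike in sequence, and the sources used here do not say how reads that fit several copies were treated, so absent domains and absent mRNA reads cannot be told apart from reads that were not placed.

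The small RNA loci that act on these ARFs were marked unevenly, with H3K4me3 on 3 of 12 and H3K27me3 on 5. Bodies shorter than 150 bases had to be wholly covered. No share over all short non-coding loci was computed, so these counts have no background and cannot be set against the shares of protein-coding genes. The mRNA table does not measure mature small RNAs, and most of these hairpins are shorter than a single step of the domain calls. Of the miR160 loci, MIR160A lay under both marks and MIR160B under H3K27me3, neither was listed, and MIR160C had neither mark and a depth of 1.00. Of the miR167 loci, MIR167D had H3K4me3 over its whole body of 377 bases and a depth of 19.8, above those of its targets ARF6 and ARF8. MIR167A also had H3K4me3, with a depth of 1.96, MIR167B had neither mark and a depth of 1.00, and MIR167C was under H3K27me3 and not listed. TAS3 (AT3G17185), the main source of the siRNAs against ARF2, ARF3 and ARF4, had a depth of 10.6 with H3K27me3 over 85.5% of its body and no H3K4me3. TAS3B was wholly under H3K27me3, TAS3C had neither mark, and both were not listed, like MIR390A and MIR390B, whose miRNA starts siRNA production from TAS3. MIR390A had neither mark and MIR390B had 54 bases of H3K27me3, under the limit.

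The genes for proteins of the small RNA pathway had no H3K27me3. All 6 were listed and carried H3K4me3 alone, the class of 73.1% of listed protein-coding genes. Depths ran from 2.59 for DCL4, which makes the TAS3 siRNAs, to 19.7 for AGO1, the main miRNA effector. AGO7, which binds miR390, was at 4.71.

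Upstream of the ARFs, the 6 auxin receptor genes were all listed and all carried H3K4me3, against 84.1% of listed protein-coding genes, and 4 of them also carried H3K27me3, against 18.4%. Their median depth was 20.9, against 10.1 for the ARFs. TIR1 was the deepest at 38.0 and AFB4 the shallowest at 7.26. AFB2 had the most H3K27me3, 1200 bases, while TIR1 and AFB5 had 300 each, the length of 1 step of the calls. With only domains at or above the median score, 1 receptor gene kept H3K27me3, against 21.6% of all protein-coding genes. With at least 50% of the body as the limit, none did, against 22.1%. These last shares are over all protein-coding genes, listed or not, so they are not comparable with the 18.4% of listed genes. The 5 TOPLESS corepressor genes carried H3K4me3 alone, as did 73.1% of listed protein-coding genes, at depths of 4.92 for TPR3 to 11.3 for TPR4. None of these 5 kept H3K4me3 once domains below the median score were left out, against 36.0% of all protein-coding genes.

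The Aux/IAA repressors, the direct binding partners of ARFs, numbered 29. Of these, 20 carried H3K4me3, against 64.4% of all protein-coding genes, which is near the background. H3K27me3 was on 13, against 31.0% of all protein-coding genes. Both marks were on 9 of the 29, against 10.1% of all protein-coding genes. Depths reached 105.8 for IAA8 and 79.1 for IAA9, both with H3K4me3 alone. IAA7 (59.6), IAA2 (45.7), IAA1 (33.6) and IAA17 (30.8) carried both marks and had depths above every one of the 10 ARFs except ARF2. The other Aux/IAA genes with both marks were lower: IAA14 (10.2), IAA19 (6.27), IAA5 (5.02), IAA6 (3.69) and IAA20, which was not listed. IAA15 and IAA33 had H3K27me3 alone and were not listed. IAA29 and IAA30 also had H3K27me3 alone but were listed, at depths of 4.30 and 1.00.

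Of 17 genes picked as lying downstream of ARF proteins, 15 carried H3K27me3, against none of the 10 ARFs and 31.0% of all protein-coding genes. The mRNA table listed 10 of the 17, against 72.9% of all protein-coding genes. The 17 genes were picked by hand, and no test was run. The median depth of the 17 was 1.00, with unlisted genes counted at 0. TMO3, a target of ARF5 in the embryo, and GH3.5, an auxin-conjugating enzyme gene, were without H3K27me3, at depths of 8.80 and 2.15. FIL, a lower-side leaf identity gene, was the deepest at 12.3 and carried both marks, with H3K27me3 over 90.2% of its body. TMO5 and TMO6, vascular targets of ARF5, also had both marks, at depths of 5.10 and 4.69. LFY and DRN, which act in flower and organ primordia, had both marks and were not listed. Both marks were on 7 of the 17, against 10.1% of all protein-coding genes. When domains below the median score were left out, H3K27me3 stayed on 15 and H3K4me3 on 1. The shares of all protein-coding genes were then 21.6% and 36.0%. Most of these calls of both marks thus rest on H3K4me3 domains of lower score.

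**Figure D4:**
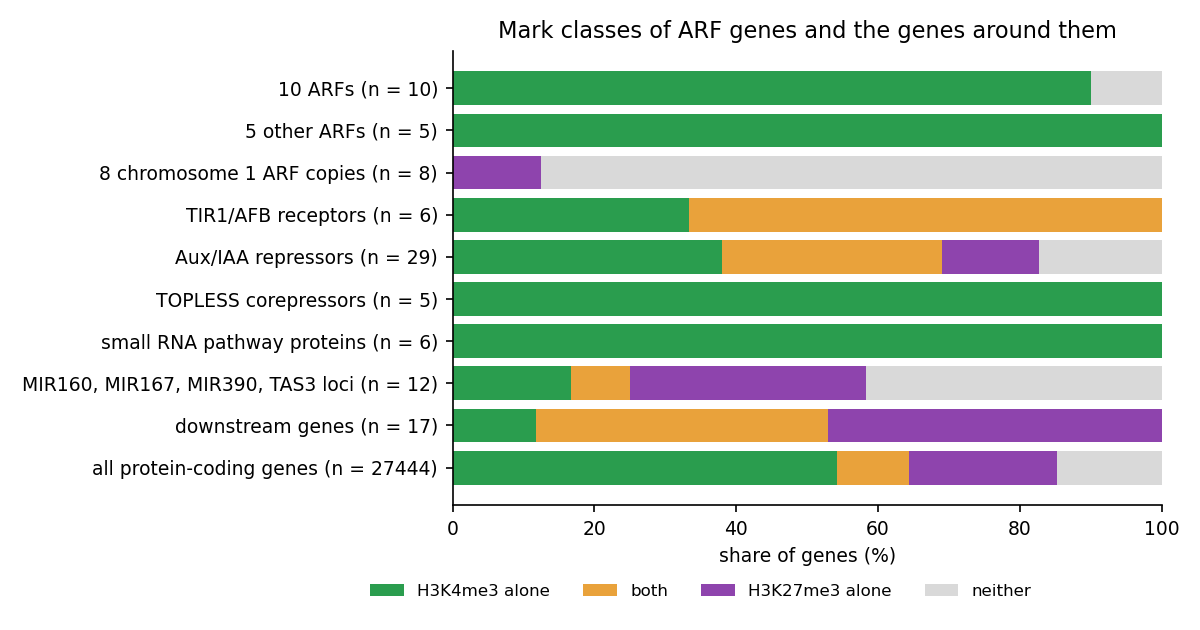
Share of genes (%) with H3K4me3 alone, both marks, H3K27me3 alone or neither, for the 10 ARFs, the other ARF genes, the genes around them in the auxin pathway and all protein-coding genes. The 10 ARFs have no H3K27me3, while 15 of 17 downstream genes and 4 of 6 receptor genes carry it, against 31.0% of all protein-coding genes. Of listed genes with bodies as long as the ARFs', 14.7% carry it. Without domains below the median score, 15 downstream genes and 1 receptor gene keep it, against 21.6% of all protein-coding genes.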

How the data were processed

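The authors deposited 1 domain list per mark, with a whole-number score per domain in an unstated unit, and a coverage signal per gene, a read depth averaged over its exons. Bowtie, SICER and TAIR10 are named in the submitters' processing notes, with no version or setting. The sources used here do not give how ChIP replicates and input entered the calls, how depths were scaled, or whether reads were assigned by strand, so reads of overlapping genes cannot be separated. The lowest depth, exactly 1, was held by 7.66% of loci, so depths may average covered bases only. Libraries were made from 20 ng of DNA or 1 ug of total RNA, per the labels' protocols.

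Domains came in steps of 150 bases (H3K4me3, 19276 domains) and 300 bases (H3K27me3, 15863) and are printed 1-based. Bodies and symbols came from the RefSeq gene table of TAIR10.1, whose coordinates are not printed. Moving the H3K4me3 domains by up to 10 kb either way, 50 bases at a time, never improved their fit to these bodies in any of 26 windows of 5 Mb. Of the loci with a depth, 20677 matched the table and 87 did not. All 104 list loci matched. The overlap routine was exact on simulated data (2000 bodies). A mark needed 150 bases of the body, or all of a shorter one.

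With 1 value per gene and assay, no test was run. Members, lists and roles were chosen with earlier results of these data known, and the comparison at like H3K4me3 coverage and the correlation over listed genes were added after seeing the data. All 10 members are named. Of other lists, the 2 deepest and 2 shallowest genes, genes outside the most frequent class and the small RNA loci could be named. The remaining ARFs, AFB2, AGO7 and neighbours of members were named after their values were seen. Percentiles are shares of lower values. Python 3.11.15, numpy 2.4.6, pandas 2.3.3, scipy 1.17.1 and matplotlib 3.10.9 were used.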

Additional observations from a re-analysis of the deposited data

How the results depend on the processing

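No paired analysis was possible because the domain lists hold no separate replicates. Leaving out a replicate was impossible for the same reason. With at least 1 base of the body as the limit, all 10 ARFs stayed in their class. With at least 50% of the body, H3K4me3 was left on 1 ARF (ARF10) and 2 ARFs kept their class, while the shares of all protein-coding genes were 15.5% for H3K4me3 and 22.1% for H3K27me3. With the lower-scoring part of each domain list left out, 8 ARFs kept their class, and the shares of all genes were 36.0% and 21.6%. With 1000 bases added at each end, 2 ARFs had H3K27me3 and 1 had both marks, against 43.9% of all genes with H3K27me3 and 73.6% with H3K4me3. The median depth of the ARFs was 10.5 without those that overlap another gene and 10.5 without ARF7, the latter added after seeing the data. The range of depths was 18.9-fold with a pseudocount of 1. Spearman's rho was 0.034 without ARF2, 0.034 without ARF5 and 0.51 without ARF10, all added after seeing the data. Placing the ARFs among all protein-coding genes raised each percentile, by 1.61 to 19.5 points, and kept their order. Among listed genes within 20% of each ARF's body length the percentiles changed by -6.90 to 4.56 points, and the order changed, with ARF6 (74.8) above ARF3 (71.1). Domains and depths carry no error, and the read depth behind them is unknown.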

Other observations

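Several genes next to the ARFs were in other mark classes. HSFB2A, a heat shock factor gene 411 bases from ARF2, carried both marks and had a depth of 6.004. AT5G37030, 159 bases from ARF8, carried H3K27me3 alone and was not listed. AGL62, an endosperm MADS box gene 538 bases from ARF4, had neither mark and a depth of 1.35. MTR4, an RNA helicase gene that overlaps ARF1 by 6 bases, had H3K4me3 alone and a depth of 6.75, against 14.6 for ARF1. AT2G33855, which adjoins ARF3, also had H3K4me3 alone. These neighbours were named after their values were seen, and no background was set beside them.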
